A study of Homo sapiens with 16 samples.

Results

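The expression of 9 Kruppel-like factors was followed in HepG2 cells, a human hepatoma line, on 16 Affymetrix arrays. The factors were KLF2, KLF4, KLF5, KLF6, KLF9, KLF10, KLF11, KLF12 and KLF13, taken by gene symbol from the platform annotation. They are 9 of the 11963 genes with a probe set of their own, and 18 probe sets read them. The factors were chosen by symbol with earlier results of the same signals, the differences between times and viruses, already known. Their values are therefore a description, and the count that changed carries no independent support. All cells received a recombinant adenovirus. The control virus expressed LacZ, the beta-galactosidase gene, and the other expressed GPI-phospholipase D (GPI-PLD), an enzyme that cleaves glycosylphosphatidylinositol anchors of membrane proteins. RNA was taken after 6 h or 12 h, with 4 arrays for each of LacZ 6 h, GPI-PLD 6 h, LacZ 12 h and GPI-PLD 12 h. The sources used here name neither the promoter of the transgenes nor the virus dose, and no group without adenovirus was analysed here, so a difference between 6 h and 12 h cannot be told apart from the course of the transduction or of the culture. In these bulk RNA samples, fewer cells with a transcript and less of it per cell cannot be told apart.

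Kruppel-like factors are transcription factors that bind GC boxes and CACCC boxes through zinc fingers at the end of the protein. Their other ends differ, so that some members mostly activate and others recruit corepressors. KLF9, KLF10, KLF11 and KLF13 can recruit the SIN3A corepressor, and KLF12 recruits CTBP. KLF2, KLF4, KLF5 and KLF6 are largely activators that respond quickly to growth factors, flow or injury. In liver, KLF6 is known as a factor induced in injured and fibrotic tissue, KLF9 as a target of glucocorticoid and thyroid hormone receptors, and KLF10 and KLF11 as genes induced by transforming growth factor beta.

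The windows below are the 250 bases before the annotated start of the genes whose values the results turn on, KLF6, KLF9 and KLF12, from RefSeq on GRCh38.p14. Each reads 5′ to 3′ along the gene, and capitals mark a GC box (GGGCGG or CCGCCC) or a CACCC box (CACCC or GGGTG), the letters Kruppel-like factors bind. Bases are numbered on the genome, and all 3 genes lie on the minus strand.
KLF6, chr10:3785210-3785459: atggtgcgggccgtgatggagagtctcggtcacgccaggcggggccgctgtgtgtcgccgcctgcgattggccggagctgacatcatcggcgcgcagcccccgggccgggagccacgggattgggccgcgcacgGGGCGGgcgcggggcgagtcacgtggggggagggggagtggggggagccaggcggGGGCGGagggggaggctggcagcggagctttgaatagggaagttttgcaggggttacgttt
KLF9, chr9:70414658-70414907: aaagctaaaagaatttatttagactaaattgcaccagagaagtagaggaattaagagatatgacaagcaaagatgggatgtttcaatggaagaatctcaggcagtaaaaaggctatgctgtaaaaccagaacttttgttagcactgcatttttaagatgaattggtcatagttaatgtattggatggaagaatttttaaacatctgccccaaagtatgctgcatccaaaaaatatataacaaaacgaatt
KLF12, chr13:74134405-74134654: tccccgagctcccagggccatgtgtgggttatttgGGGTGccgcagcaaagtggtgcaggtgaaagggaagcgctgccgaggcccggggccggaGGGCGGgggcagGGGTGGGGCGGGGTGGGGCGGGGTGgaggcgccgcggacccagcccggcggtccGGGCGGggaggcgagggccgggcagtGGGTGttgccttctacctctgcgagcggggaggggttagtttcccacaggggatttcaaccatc
The KLF6 window was 72.4% G and C and held 2 GC boxes and no CACCC box. The KLF9 window was 32.4% G and C and held neither box. KLF12 had 4 annotated windows, and the window shown is the one with the most boxes, chosen after the letters were seen. It was 72% G and C, with 4 GC boxes and 5 CACCC boxes, some of which overlap. Windows were used for 8 of the 9 factors, 13 in all, and 8 of the 13 held a GC box on either strand, against 42.6% of 35116 windows of that length in the same table. A CACCC box was found in 6 of 13, against 54.7% of all windows. The cyclic AMP response element TGACGTCA was found in 1 of 13 windows, that of KLF11, against 1.65% of all windows, and the E box CACGTG in 3, against 6.34%. A match is a stretch of letters, and no binding was measured here.

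Array medians ran from 304.5 to 377.6, and the 2% trimmed mean from 999.8 to 1000.4. Each array's mean correlation with the other arrays of its group lay between 0.938 and 0.958 over all probe sets, lowest in GPI-PLD 12 h. The 5 probe sets of GPLD1, the gene for GPI-PLD, differed between the viruses by -0.22 to 0.60 log2 at 6 h and by -0.33 to 0.18 at 12 h. None of them passed the limma test, run over all probe sets, at either time. Whether these probes lie in the part of the transcript that the virus carries is not given in the sources used here, so the virus labels were not checked by this gene and each virus group is named as labelled. Hepatocyte markers were high in every array: all 8 on the array passed the filter, ALB and AFP were the brightest, and their summed signal lay between 321618 and 397043. Endothelial markers summed to 261 to 719.6 in LacZ 6 h, 218.9 to 658.7 in GPI-PLD 6 h, 718.2 to 891 in LacZ 12 h and 562.9 to 906.4 in GPI-PLD 12 h, with 1 of 6 genes above the filter and PECAM1 and TEK the brightest. Leukocyte markers, of which LYZ and CD3E were the brightest, summed to 6136 to 12157 in LacZ 6 h and 10129 to 13961 in LacZ 12 h, and to 8359 to 11163 and 8718 to 12604 in GPI-PLD, with 2 of 4 genes above the filter. Most of this sum was LYZ alone, at a mean signal of 9419, against 417 for CD3E, 97.7 for PTPRC and 57.7 for CD14. Fibroblast markers, with COL1A1 and COL1A2 the brightest, summed to 1530 to 2820 over all arrays, with 5 of 6 above the filter. No listed marker was at 0, and the part of these markers in the results was not tested.

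KLF9 and KLF6 rose between 6 h and 12 h. By the brightest probe set of each gene, KLF9 did so under both viruses, and KLF6 in GPI-PLD cells. For KLF6 the virus depended on the probe set. A further KLF6 probe set passed under both viruses, and the mean of the KLF6 probe sets passed in LacZ and missed in GPI-PLD. The KLF9 call in LacZ was lost in 11 of 26 alternative fits, described below. No factor passed the test between the 2 viruses at 6 h or 12 h. The test was limma on log2(signal + 63), in which 63 is the 20th percentile of all signals, over the 8102 genes whose mean signal reached 188. It reads each gene by its brightest probe set and calls a gene at a Benjamini-Hochberg adjusted p under 0.05. A fold is on the signal + 63 scale and understates the change of dim genes. The 6 factors that passed the filter were KLF5, KLF6, KLF9, KLF10, KLF11 and KLF12, and KLF11 at a mean signal of 198 was just inside. Of the factors outside, KLF2 at 113 was the nearest to the filter, and KLF4 at 57.0 and KLF13 at 26.3 lay further below.

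Of the 6 tested factors, 1 rose in LacZ cells, where 6.89% of all tested genes were called, 3.64% higher and 3.25% lower. In GPI-PLD cells 2 rose, against 9.68% called, 4.6% higher and 5.07% lower. The median difference between 12 h and 6 h over the 6 was 0.46 log2 in LacZ and 0.69 in GPI-PLD, beside 0.0051 and 0.013 over all tested genes. In LacZ 5 were higher and 1 lower at 12 h, and in GPI-PLD all 6 were higher. At an unadjusted p under 0.05 the counts were 2 and 5 of 6, against 20.2% and 22.8% of all tested genes. The LacZ and GPI-PLD time differences are taken from separate arrays, but the fit estimates a gene's spread from all arrays together. Their standard errors are therefore the same, as for KLF9 at 0.20 log2 under both viruses, and their p-values are not independent. Each virus comparison below uses arrays that also enter the time comparisons.

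**Figure D1:**
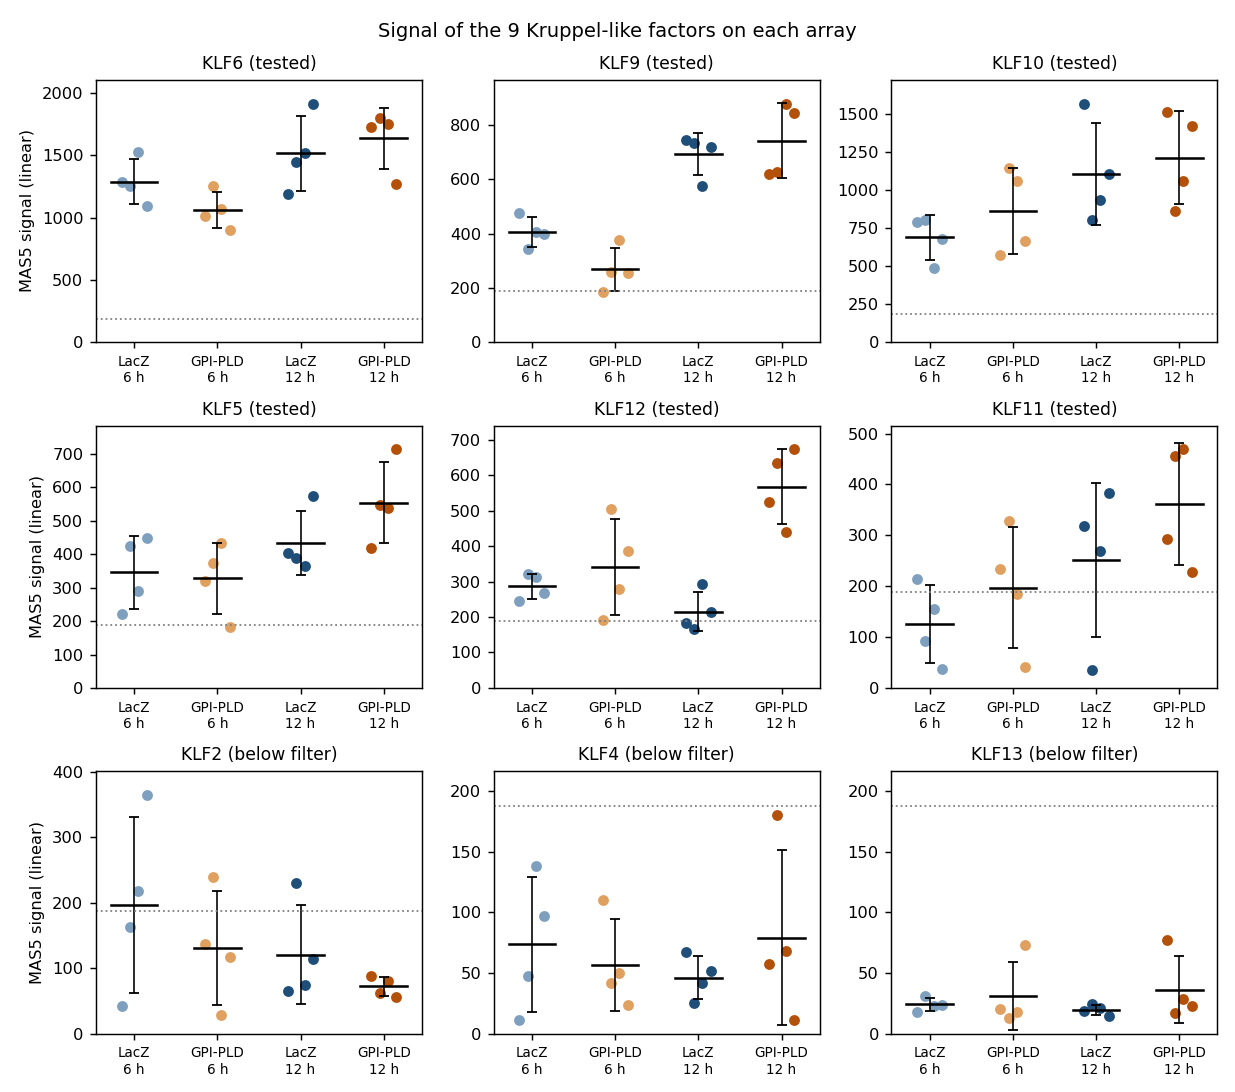
MAS5 signal (linear axis from 0, 1 panel a factor) on each of the 16 arrays, by group, from the brightest probe set of each gene; points are arrays, horizontal bars are group means, whiskers are SD (n = 4) and the dotted line is the filter at 188. The KLF9 points of 12 h lie between 576.5 and 878.5, all above those of 6 h, which reach 475.1.

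KLF9, a repressor of many GC-box promoters that hormones induce, read 475.1, 341.2, 404.3 and 399.9 in LacZ 6 h (405.1 ± 54.8, SD, n = 4). In LacZ 12 h it read 742.8, 733.3, 576.5 and 719.7 (693.1 ± 78.3, SD, n = 4). In LacZ the times did not overlap, as for 12.9% of tested genes. KLF9 was 0.69 ± 0.20 log2 higher at 12 h in LacZ cells (SE; 95% interval 0.28 to 1.11; 1.62-fold; limma adjusted p = 0.0365).

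In GPI-PLD 6 h KLF9 read 183.8, 258.9, 376.5 and 255.7 (268.7 ± 79.8, SD, n = 4), and in GPI-PLD 12 h it read 619, 625.9, 878.5 and 842.5 (741.5 ± 138, SD, n = 4). The array of 376.5 in GPI-PLD 6 h was the highest of its group and still lay below every array of 12 h, a separation found for 15.9% of tested genes. The rise was 1.29 ± 0.20 log2 (SE; 95% interval 0.88 to 1.71; 2.45-fold; limma adjusted p = 0.000110). It passed in all 26 alternatives, with an adjusted p of 7.15e-05 to 0.0190. The rise in LacZ cells passed in 15 of 26, with differences of 0.52 to 0.78 and an adjusted p of 0.0258 to 0.141. It was lost when LacZ 6 h replicate 2, 3 or 4 was left out (0.0956, 0.0685 and 0.0675) and when LacZ 12 h replicate 1, 2 or 4 was left out (0.0974, 0.0988 and 0.0848). With the mean of its probe sets the KLF9 difference in LacZ was 0.59 log2 and did not pass (limma adjusted p = 0.141). The call in LacZ was also lost under quantile normalization, without a filter, with all probe sets and with array weights.

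KLF6, an activator that counts collagen and growth factor receptor genes among its reported targets, read 1283.2, 1254.9, 1526.4 and 1093 in LacZ 6 h (1289 ± 179, SD, n = 4). In GPI-PLD 6 h it read 1014.6, 1252.6, 1072 and 904.2 (1061 ± 146, SD, n = 4). LacZ 12 h gave 1186.8, 1445.6, 1523.5 and 1916.8 (1518 ± 302, SD, n = 4), a range that overlaps LacZ 6 h. GPI-PLD 12 h gave 1726.1, 1802.5, 1750.4 and 1273 (1638 ± 245, SD, n = 4), and its lowest array lay just above the highest array of GPI-PLD 6 h. In GPI-PLD the times did not overlap for 15.9% of tested genes.

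In GPI-PLD cells KLF6 rose by 0.59 ± 0.15 log2 (SE; 95% interval 0.29 to 0.90; 1.51-fold; limma adjusted p = 0.0112). The difference in LacZ cells was 0.22 ± 0.15 (95% interval -0.09 to 0.52; limma adjusted p = 0.466). The difference between these 2 time differences was 0.38 ± 0.21 log2 and did not pass (limma adjusted p = 0.711), so KLF6 was not shown to differ between the viruses in its course.

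A limma fit over all 22215 probe sets that are not controls gave the other readings of these genes. A further KLF6 probe set, 208960_s_at, read 1086.4, 769.2, 758.6 and 692.3 in LacZ 6 h and 1193.8, 1117.9, 1288.9 and 1477.4 in LacZ 12 h. In GPI-PLD it read 614.5, 783.3, 792.2 and 518.2 at 6 h and 1156.4, 1141.8, 1077.6 and 1026.6 at 12 h. Under both viruses every array of 12 h lay above every array of 6 h. Among tested genes, each read by its brightest probe set, the times did not overlap for 12.9% in LacZ and 15.9% in GPI-PLD. By this probe set KLF6 rose in both, by 0.60 ± 0.16 log2 in LacZ (limma adjusted p = 0.0423) and by 0.67 ± 0.16 in GPI-PLD (limma adjusted p = 0.0156). The brighter probe set passed only in GPI-PLD in that fit (limma adjusted p = 0.0275, and 0.622 in LacZ). The dimmest set, 211610_at, gave 0.74 ± 0.31 in LacZ and 0.06 ± 0.31 in GPI-PLD and passed in neither (limma adjusted p = 0.296 and 0.952). When the probe sets of a gene were averaged in place of taking the brightest, KLF6 passed in LacZ (0.52 log2, limma adjusted p = 0.0289) and missed in GPI-PLD (limma adjusted p = 0.0504).

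For KLF9 the other probe sets gave smaller differences. The probe set 203543_s_at, at 245.2 ± 115 in LacZ 6 h and 396.9 ± 74.1 in LacZ 12 h (SD, n = 4), differed by 0.63 ± 0.27 log2. In GPI-PLD it went from 202.4 ± 43.4 to 330.4 ± 62.4, a difference of 0.57 ± 0.27. Neither passed (limma adjusted p = 0.311 and 0.317). The dimmest set, 203541_s_at, gave 0.46 ± 0.41 and 0.76 ± 0.41 and did not pass. All 3 probe sets read KLF9 higher at 12 h under both viruses, but the call rests on 203542_s_at. In the fit of all probe sets that set passed in GPI-PLD (limma adjusted p = 0.000307) and missed in LacZ (limma adjusted p = 0.0715).

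**Figure D2:**
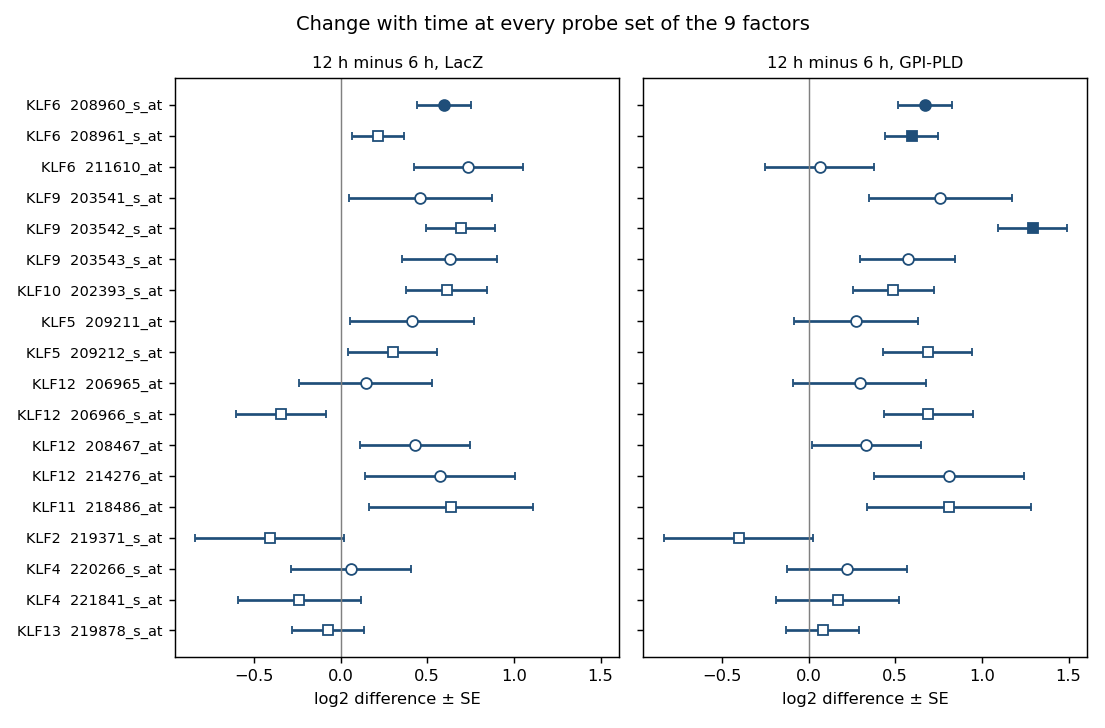
Difference between 12 h and 6 h (log2, axis) for each of the 18 probe sets of the 9 factors, in LacZ and in GPI-PLD cells; whiskers are SE, squares are the brightest set of a gene and filled symbols passed the limma test over all probe sets. In LacZ 14 of 18 lie above 0 and in GPI-PLD 17 of 18.

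Over the 18 probe sets of the factors, 14 were higher and 4 lower at 12 h in LacZ, and 17 were higher and 1 lower in GPI-PLD. Over all 22215 probe sets, 50.5% were higher at 12 h in LacZ and 56.4% in GPI-PLD. Of the 18, 1 passed in LacZ and 3 in GPI-PLD, all of KLF6 and KLF9, where 2.73% and 3.8% of all probe sets were called. Probe sets of a gene share its transcript, and the sets marked s can match more than 1 transcript, so they are not separate genes.

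KLF10, a repressor induced by transforming growth factor beta, read 791.9, 805.6, 485.9 and 677.6 in LacZ 6 h (690.2 ± 148, SD, n = 4) and 1568.2, 801.2, 932.4 and 1108.3 in LacZ 12 h (1103 ± 335, SD, n = 4). In GPI-PLD it read 570.8, 1144.1, 1057.6 and 666.1 at 6 h (859.6 ± 283, SD, n = 4) and 1511.2, 863.1, 1059.9 and 1420.8 at 12 h (1214 ± 304, SD, n = 4). The ranges of the times overlapped under both viruses. KLF10 differed by 0.61 ± 0.23 log2 in LacZ (95% interval 0.14 to 1.08; limma adjusted p = 0.118) and by 0.49 ± 0.23 in GPI-PLD (95% interval 0.02 to 0.96; limma adjusted p = 0.198), and neither passed.

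KLF5, an activator of proliferation genes in epithelia, read 220.9, 426, 290.4 and 447.6 in LacZ 6 h and 403.6, 389.8, 365.8 and 575.1 in LacZ 12 h. In GPI-PLD it read 320.8, 374.1, 433.6 and 182.7 at 6 h and 419.3, 547.2, 539 and 713.8 at 12 h. The times overlapped under both viruses. The difference was 0.30 ± 0.26 log2 in LacZ (limma adjusted p = 0.579) and 0.69 ± 0.26 in GPI-PLD (95% interval 0.15 to 1.22; limma adjusted p = 0.0985). Its other probe set, 209211_at, gave 0.41 ± 0.36 and 0.28 ± 0.36.

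KLF11, also induced by transforming growth factor beta and a partner of SIN3A, varied most between arrays of a group among the tested factors, with a coefficient of variation of 33.2% to 61.2%. It read 214.8, 92.6, 154.7 and 38 in LacZ 6 h, 232.9, 328.6, 184.3 and 42.1 in GPI-PLD 6 h, 319, 34.9, 270 and 382.5 in LacZ 12 h, and 292.8, 455.3, 468.9 and 227.2 in GPI-PLD 12 h. Each group of 6 h overlapped its group of 12 h. The time differences of 0.64 ± 0.48 log2 in LacZ and 0.81 ± 0.48 in GPI-PLD did not pass (limma adjusted p = 0.518 and 0.333), and the first interval ran from -0.36 to 1.64.

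The comparison of GPI-PLD with LacZ sets the virus labelled GPI-PLD against the virus labelled LacZ, which also carries a transgene. Expression of the enzyme was not shown here. At 6 h limma called 0 of the 6 tested factors, and 0% of all tested genes. At an unadjusted p under 0.05 there were 1 of 6 factors and 4.64% of genes. At 12 h it again called 0 of 6 and 0% of genes, with 1 of 6 factors and 7.21% of genes at an unadjusted p under 0.05. At 6 h 0 of the 6 had virus groups that did not overlap, against 3.02% of genes. Limma without trend and robust also called 0 factors at both times. The median virus difference over the 6 was 0.04 log2 at 6 h and 0.23 at 12 h, beside 0.0035 and 0.0062 over all tested genes. Averaged over the times, 0 of 6 and 0% of genes were called, with 1 of 6 and 4.2% at an unadjusted p under 0.05. For the difference between the 2 virus effects, 0 of 6 and 0.0123% of genes were called, with 2 of 6 and 7.53% at an unadjusted p under 0.05.

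**Figure D3:**
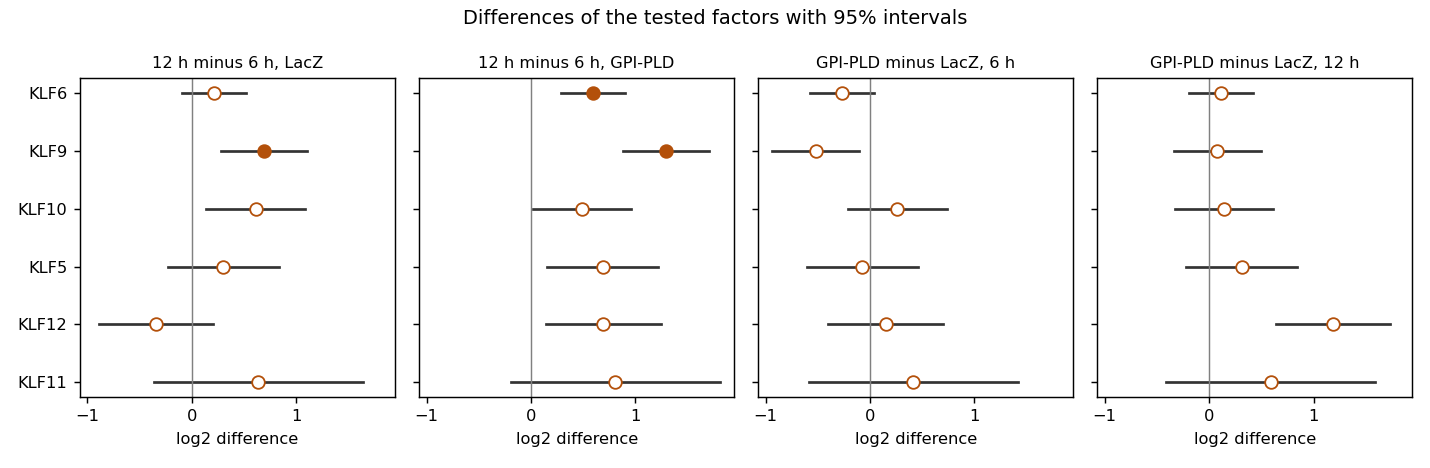
Log2 differences (axis) of the 6 tested factors with 95% intervals, for 12 h minus 6 h under each virus and for GPI-PLD minus LacZ at each time; filled points passed the limma test. KLF9 is filled in both time panels, KLF6 in the GPI-PLD time panel, and no point is filled in the virus panels, in which KLF12 at 12 h lies at 1.19.

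KLF12, a repressor that recruits CTBP, had the lowest unadjusted p of the factors between the viruses. It read 184.2, 167.6, 293.3 and 214.9 in LacZ 12 h (215 ± 55.8, SD, n = 4) and 524.6, 633.5, 440.1 and 673 in GPI-PLD 12 h (567.8 ± 106, SD, n = 4). Every GPI-PLD array of 12 h lay above every LacZ array, as for 3.99% of tested genes, and KLF12 was the 1 tested factor of the 6 whose virus groups did not overlap at 12 h. The difference was 1.19 ± 0.27 log2 (SE; 95% interval 0.64 to 1.74; 2.28-fold), and it did not pass over all genes (limma unadjusted p = 0.000185, adjusted p = 0.300).

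At 6 h KLF12 read 243.9, 320.2, 312.1 and 268.9 in LacZ (286.3 ± 36.1, SD, n = 4) and 191.7, 505.7, 278.3 and 387.4 in GPI-PLD (340.8 ± 136, SD, n = 4). The GPI-PLD arrays lay on both sides of the LacZ arrays, and the difference was 0.15 ± 0.27 log2 (limma adjusted p = 0.998). The virus difference at 12 h exceeded that at 6 h by 1.04 ± 0.38 log2 (95% interval 0.26 to 1.81) and did not pass (limma unadjusted p = 0.0114, adjusted p = 0.484). Over time KLF12 differed by -0.34 ± 0.27 log2 in LacZ and by 0.69 ± 0.27 in GPI-PLD, and neither passed (limma adjusted p = 0.529 and 0.109).

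The KLF12 difference of 12 h rested on its brightest probe set, 206966_s_at. The other 3, 206965_at, 208467_at and 214276_at, gave -0.17 ± 0.38, -0.26 ± 0.32 and -0.02 ± 0.43 log2 between the viruses at 12 h. Each had a mean signal below the filter, with group means of 27 to 235. In LacZ 12 h, though, 214276_at averaged 235, beside 215 for 206966_s_at, so dimness does not set it apart in that group. With the mean of its probe sets the KLF12 difference was 0.18 log2 (limma adjusted p = 0.861). KLF12 passed in 0 of 26 alternatives, whose adjusted p ran from 0.158 to 0.861.

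KLF9 differed between GPI-PLD and LacZ at 6 h by -0.52 ± 0.20 log2 (SE; 95% interval -0.94 to -0.10), and did not pass (limma unadjusted p = 0.0164, adjusted p = 0.997). The GPI-PLD array at 376.5 lay within the LacZ range. At 12 h the virus difference was 0.08 ± 0.20 log2 (limma adjusted p = 0.954). The time difference of KLF9 was 0.60 ± 0.28 log2 larger in GPI-PLD than in LacZ (95% interval 0.01 to 1.19), and this did not pass (limma unadjusted p = 0.0457, adjusted p = 0.637). The 4 arrays of GPI-PLD 6 h enter both the lower level at 6 h and the larger time difference. By the other KLF9 probe sets the virus difference at 6 h was -0.13 ± 0.41 and -0.16 ± 0.27 log2.

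The other tested factors differed less between the viruses relative to their errors. At 6 h KLF6 gave -0.27 ± 0.15 log2, KLF10 0.26 ± 0.23, KLF5 -0.07 ± 0.26 and KLF11 0.42 ± 0.48. At 12 h KLF11 gave 0.59 ± 0.48, KLF5 0.31 ± 0.26, KLF10 0.14 ± 0.23 and KLF6 0.11 ± 0.15. These intervals leave room for differences in either direction, and the widest, for KLF11, is the least informative.

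KLF2, KLF4 and KLF13 were below the filter and are described from the fit of all probe sets. KLF2, a factor of quiescent endothelium and lymphocytes, read 41.9, 162.7, 217.4 and 364.5 in LacZ 6 h and 137.8, 240, 29 and 116.5 in GPI-PLD 6 h. At 12 h it read 65.6, 229.6, 74.1 and 114.2 in LacZ and 88.5, 63, 81 and 56.5 in GPI-PLD. The groups overlapped. KLF2 was the 1 factor of the 9 whose brightest set read lower at 12 h under both viruses, at -0.41 ± 0.43 and -0.40 ± 0.43 log2, neither of which passed.

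KLF4, a factor of epithelial differentiation and of pluripotent cells, read between 11 and 180.7 over the 16 arrays by its brightest probe set, with group means of 73.6 in LacZ 6 h, 56.5 in GPI-PLD 6 h, 46.3 in LacZ 12 h and 79.2 in GPI-PLD 12 h. Its other probe set, 220266_s_at, was about as dim, with group means of 86.1, 31.9, 95.2 and 46.3 in the same order. Between the viruses at 12 h it gave -0.42 ± 0.35 log2, against 0.26 ± 0.35 for the brightest set, and neither passed. KLF13, a partner of SIN3A known for its part in T cells, read between 13.3 and 77, with group means of 24.2, 31.1, 19.8 and 36.2 in the same order. At these signals the coefficient of variation within a group reached 90.9% for KLF4 and 90.0% for KLF13, and differences were not detectable.

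Spread between arrays set what could be seen. Within groups the coefficient of variation was 13.7% to 19.9% for KLF6, 11.3% to 29.7% for KLF9, 12.6% to 39.9% for KLF12 and 21.8% to 32.7% for KLF5. The standard error of a difference was 0.15 log2 for KLF6 and 0.48 for KLF11, against a median of 0.170 over all tested genes. The span of the 4 group means was 1.29 log2 for KLF9, 1.23 for KLF11, 1.19 for KLF12, 0.75 for KLF10, 0.69 for KLF5 and 0.59 for KLF6. These spans lay at the 98.9th, 98.6th, 98.4th, 90.9th, 87.9th and 82.0th percentile of all tested genes.

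The rest of the family and its partners were read from lists. Of 18 other KLF and SP factors 9 were on the array and 8 were tested. None passed limma with time under either virus, against 6.89% of all tested genes in LacZ and 9.68% in GPI-PLD. At an unadjusted p under 0.05 the counts were 1 in LacZ and 0 in GPI-PLD, against 20.2% and 22.8% of all tested genes. With so few genes, a list without calls is not set apart from all tested genes. Their median time difference was 0.07 log2 in LacZ and -0.01 in GPI-PLD. KLF3, a repressor that recruits CTBP, gave 0.48 ± 0.17 in LacZ (limma adjusted p = 0.0951) and -0.01 ± 0.17 in GPI-PLD. SP1, the general activator of GC-box promoters, gave -0.36 and -0.01, and SP3, its relative, 0.16 and -0.02. KLF1, the erythroid member, gave -0.64 and -0.11.

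The corepressors and coactivators that Kruppel-like factors recruit numbered 10 tested genes, with medians of 0.05 log2 in LacZ and -0.12 in GPI-PLD. Limma called none, against 6.89% of all tested genes in LacZ and 9.68% in GPI-PLD. At an unadjusted p under 0.05 the counts were 0 in LacZ and 2 in GPI-PLD, against 20.2% and 22.8% of all tested genes. SAP30 and SIN3B, parts of the SIN3 complex, gave -0.01 and 0.24 in LacZ and -0.39 and 0.48 in GPI-PLD. HDAC1, a histone deacetylase, gave -0.21 and -0.04, and CTBP1 gave 0.06 and -0.20. Of 7 tested ubiquitin ligases of these factors none was called, with medians of 0.27 in LacZ and 0.12 in GPI-PLD. At an unadjusted p under 0.05 there were 2 in LacZ and 0 in GPI-PLD. The same shares of all tested genes apply to both counts. Neither list is large enough to be set apart from all tested genes by a lack of calls. Among them FBXW7 gave 0.66 and 0.17, SMURF1 0.45 and 0.12, SIAH1 0.33 and 0.26, and WWP1, which ubiquitinates KLF2 and KLF5, 0.27 and -0.06.

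Of 16 tested inducers upstream of KLF genes, 0 were called in LacZ and 1 rose in GPI-PLD, with medians of 0.23 and 0.14 log2. Of all tested genes 6.89% were called in LacZ and 9.68% in GPI-PLD. At an unadjusted p under 0.05 the inducer counts were 2 and 4 of 16, against 20.2% and 22.8% of all tested genes. The 1 inducer that rose was SMAD2, a signal carrier of transforming growth factor beta, at 0.51 ± 0.12 in GPI-PLD (limma adjusted p = 0.00836) and 0.22 ± 0.12 in LacZ (limma adjusted p = 0.324). SMAD3 gave 0.01 and 0.49, the receptor TGFBR2 0.23 and 0.15, and the ligand TGFB1 0.54 and 0.02, none of which passed.

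Of 26 tested genes reported as targets of the factors, 3 fell and 0 rose in LacZ, and 5 fell and 0 rose in GPI-PLD, with medians of -0.04 and -0.05 log2. Of all tested genes 3.25% were called lower and 3.64% higher in LacZ, and 5.07% and 4.6% in GPI-PLD. At an unadjusted p under 0.05 the target counts were 6 and 9 of 26, against 20.2% and 22.8% of all tested genes. CYP1A1, a xenobiotic-metabolising enzyme that KLF9 is reported to act on, fell by 2.01 ± 0.20 log2 in LacZ and by 1.38 ± 0.20 in GPI-PLD (limma adjusted p = 3.19e-07 and 6.10e-05). CCNB1, the cyclin of mitotic entry, fell by 0.70 ± 0.09 and 0.65 ± 0.09, and BIRC5, the mitotic and survival protein survivin, by 0.58 ± 0.14 and 0.70 ± 0.14. CCNE1, the cyclin of S-phase entry, fell by 0.64 ± 0.17 in GPI-PLD (limma adjusted p = 0.0147) and gave -0.29 ± 0.17 in LacZ (limma adjusted p = 0.348). CCND1, the cyclin of G1, fell by 0.58 ± 0.18 in GPI-PLD (limma adjusted p = 0.0454) and gave -0.05 ± 0.18 in LacZ (limma adjusted p = 0.930). CCNB1, CCNE1 and CCND1 are cell cycle genes with many regulators besides Kruppel-like factors, and TGFB1 and SMAD3 stand in both the inducer and the target list.

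AP-1, EGR and other immediate early genes were read beside the factors because several Kruppel-like factors respond to the same stimuli. Of 16 tested, 12 rose in LacZ and 8 in GPI-PLD and none fell, with medians of 1.06 and 0.87 log2. Of all tested genes 3.64% were called higher in LacZ and 4.6% in GPI-PLD. At an unadjusted p under 0.05 the counts were 13 and 13 of 16, against 20.2% and 22.8% of all tested genes. ATF3, a stress-induced repressor, rose by 1.76 ± 0.18 and 2.17 ± 0.18, and IER3, an early response gene, by 1.20 ± 0.09 and 1.39 ± 0.09. DUSP1, a phosphatase of MAP kinases, rose by 1.09 ± 0.10 and 1.30 ± 0.10, and MYC, the growth regulator, by 1.36 ± 0.12 and 1.26 ± 0.12. Between the viruses no gene of any of these lists was called at 6 h, at 12 h or averaged, and 0% of all tested genes were.

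**Figure D4:**
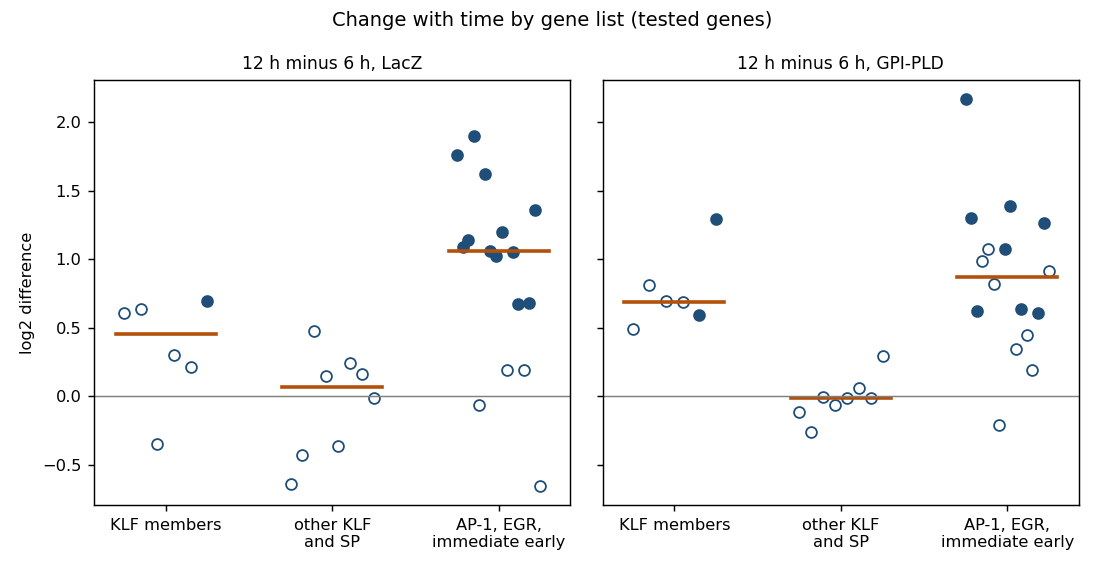
Difference between 12 h and 6 h (log2, vertical axis) for every tested gene of 3 lists, in LacZ and in GPI-PLD cells; points are genes, filled where limma called them, and bars are list medians. The immediate early genes have medians of 1.06 and 0.87, the 6 Kruppel-like factors 0.46 and 0.69, and the other KLF and SP factors 0.07 and -0.01.

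For the 3 factors whose group means spanned at least 1 log2, the genes with the most similar 4 group means were found among the tested genes outside the KLF and SP family. The measure was the root mean square difference of centred log2 means over the 4 groups of 16 arrays. Taking the nearest of all these genes over only 4 means gives small distances by selection, and a shared control was not tested. All distances given were below the standard error of a difference, 0.20 log2 for KLF9, 0.48 for KLF11 and 0.27 for KLF12. KLF11 passed in no contrast. The KLF12 means are those of 206966_s_at, whose virus difference at 12 h its other probe sets did not show. For KLF9 they were HKDC1 at 0.012 log2, GRM7 at 0.11 and STK17A at 0.11. HKDC1, a hexokinase family member, had mean signals of 366.2 in LacZ 6 h, 232.9 in GPI-PLD 6 h, 621 in LacZ 12 h and 679.7 in GPI-PLD 12 h. For KLF11 they were ODAD2 at 0.037, NPIPA1 at 0.076 and NMRK2 at 0.096. For KLF12 they were PAPSS2 at 0.047, WWC3 at 0.055 and CAPN9 at 0.060, and PAPSS2, which makes the sulfate donor of sulfation reactions, read 200.1, 207.4, 157 and 398.9 in the same order of groups.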

How the data were processed

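The 16 arrays, 10 micrograms of RNA each per the labels, were deposited as intensity values on a linear scale, named MAS5 signals in the submitters' processing notes; other steps are not given in the sources used here. All columns of values were used. Replicates, 4 in each group, were numbered in deposited order, and whether they are separate cultures is not labelled; a p-value then measures only the spread between these samples, which may be technical.

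Of 22283 probe sets, 68 were controls, 19065 had 1 symbol, 1043 several and 2107 none, per the platform annotation, which can be old; this gave 11963 genes. Genes were read by the single-symbol probe set with the highest mean of log2(signal + 63), and tested if it reached the 40th percentile (188), which left 8102. The 4 group means were fitted in R 4.3.3 by limma 3.58.1 (statmod 1.5.0; lmFit, contrasts.fit, eBayes with trend and robust), leaving 12 residual degrees of freedom. Adjustment was by Benjamini-Hochberg within each of 6 contrasts, with calls under 0.05. Other probe sets were read from a fit over all 22215 that are not controls. On simulated data the time contrast in LacZ recovered 43.3% of 67 genes changed 1.5-fold, 79.1% of 67 changed 2-fold and 97.0% of 66 changed 3-fold, with 7 false calls among 8102 genes. The number of arrays limits the precision.

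The factors, the gene lists and their tests were chosen with earlier results of these data known. The rule named all 9 factors with every probe set of their own, the 4 genes of each other list with the smallest p over the time contrasts and any called between viruses, the 2 brightest markers of a cell type, and for factors spanning at least 1 log2 the 3 genes with the most similar group means; CCND1 was named after its values were seen. Promoter windows came from RefSeq (GRCh38.p14). As alternatives, arrays were normalized by quantiles or scaled to their 75th percentile, the pseudocount was dropped or taken 4 times, the filter was dropped or raised to the 60th percentile, and probe sets were averaged or all tested. Plain eBayes, array weights, a fit of the compared arrays alone, and leaving out single arrays were also run. Figures used Python 3.11.15 with pandas 2.3.3 and matplotlib 3.10.9.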

Additional observations from a re-analysis of the deposited data

Results flagged for a closer look

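Among 36 groups of 4 arrays, the 4 groups for each of the 9 factors, 3 held an array that stood apart from the other 3 by Dixon's criterion, and chance alone sets apart about 1 in 20 such groups. KLF6 read 1273 in GPI-PLD 12 h replicate 4, below 1726.1 to 1802.5 in the other arrays of that group. KLF9 read 576.5 in LacZ 12 h replicate 3, below 719.7 to 742.8 in the others. KLF13 read 72.8 in GPI-PLD 6 h replicate 4, above 13.3 to 20.1 in the others, at a signal that failed the filter. With each array left out in turn, KLF6 and KLF9 still rose in GPI-PLD cells.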

How the results depend on the processing

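The 6 tested factors gave 936 values under the alternatives, of which 906 kept their direction and their side of the threshold, 12 missed it, 1 newly passed and 17 changed sign. Most of the 906 were values that were not called in the main fit and stayed so. All 12 fell on calls of the main fit. KLF9 in LacZ missed in 11 of 26 alternatives, KLF6 in GPI-PLD in 1 of 27 and KLF9 in GPI-PLD in 0 of 26. Each factor was counted by its brightest probe set, except where probe sets were averaged. In LacZ cells the count of factors that rose was 0 under quantile normalization, without a filter and with array weights. Over all genes these settings called 562 of 8102, 478 of 11963 and 579 of 8102. The count was also 0 with the 60th percentile filter, in which KLF9 was not tested, and with all probe sets. In that last fit a further KLF6 set, 208960_s_at, did pass in LacZ (limma adjusted p = 0.0423). With each array left out the count ran from 0 to 1. With the mean of probe sets KLF6 was called in LacZ in place of KLF9. In GPI-PLD cells the count was 1 with the 60th percentile filter, in which only KLF6 and KLF10 were tested, and 1 with the mean of probe sets. Over all genes these settings called 814 of 5647 and 703 of 8102. With each array left out the count was 2 to 2. No factor was called between the viruses under any alternative. With the mean of probe sets the sign turned for KLF6 between viruses at 12 h (-0.082) and in the interaction (-0.073), and for KLF12 between viruses at 6 h (-0.15) and with time in LacZ (0.20); array weights turned KLF5 between viruses at 6 h (0.036). With single arrays left out, differences ran from -0.24 to 0.13 for KLF5 and from -0.035 to 0.35 for KLF12 between viruses at 6 h, from -0.0014 to 0.15 for KLF9 between viruses at 12 h, and in the interaction from -0.28 to 0.054 for KLF10 and from -0.32 to 0.44 for KLF11. The cause was not tested. Of all genes called with time in LacZ, 52.9% were higher, against 38.3% after scaling to the 75th percentile. Signal near background limits KLF2, KLF4, KLF13 and most probe sets of KLF12. No paired analysis was possible because the labels give no replicate numbers.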
